A study of Rattus norvegicus with 16 samples.

Results

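The immediate early and AP-1 genes Fos, Fosb, Jun, Junb, Egr1, Atf3, Nr4a1, Nr4a2, Nr4a3 and Dusp1 were described in sorted cells of the rat carotid body, the oxygen-sensing organ beside the carotid artery. These are 10 of the 18166 genes that the array measures with probes annotated to 1 gene only. Each gene was read by its single-gene probe with the highest mean over all 16 arrays, and Jun alone had 1 further single-gene probe, which is given beside it. The samples were glomus cells, the catecholamine-storing chemoreceptor cells, and neuroblasts, immature cells of the same lineage. All came from Wistar rats of 9 to 11 weeks. The carotid bodies of both sides were combined and dispersed with enzymes, and the cells were sorted into HNK-1 positive neuroblasts and HNK-1 negative glomus cells. HNK-1 is a sugar epitope on neural surface proteins, so the glomus group is defined by lack of this stain and can hold any other HNK-1 negative cell that passed the sort. There were 4 groups of 4 arrays: normoxic glomus cells and normoxic neuroblasts from rats in ambient air, and hypoxic glomus cells and hypoxic neuroblasts from rats kept for 3 days in hypoxic chambers. The sources used here do not tell if a group's 4 samples were 4 animals or pools, so p-values measure the spread between these samples only.

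Immediate early genes are transcribed soon after a stimulus from factors already present in the cell, without new protein synthesis, and their transcripts are short-lived. In excitable cells calcium entry and cyclic AMP act on them through the factors CREB and SRF, and depolarised neurons and chemoreceptor cells are a textbook setting for their induction. Fos and Jun proteins pair through leucine zippers to form AP-1, Atf3 encodes a related zipper factor, Egr1 a zinc finger factor, and the Nr4a genes encode orphan nuclear receptors. Dusp1 encodes a phosphatase that switches off the MAP kinases which drive the same genes. Enzymatic tissue dispersal is itself known to induce this class of genes, and all 16 samples went through it.

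RefSeq promoter windows were at hand for 6 of the 10 genes (Fosb, Junb, Egr1, Nr4a1, Nr4a2 and Dusp1), read as the 250 bases upstream of the annotated start in build GRCr8. The windows below are shown because they hold the sequence elements through which CREB and SRF are known to act: capitals mark the CRE core TGACG on either strand and the CArG box, 6 bases of A or T between CC and GG. The coordinates are chr10:17184603-17184852 for Dusp1, chr18:26736828-26737077 for Egr1, chr7:134259888-134260137 for Nr4a1 and chr19:40080876-40081125 for Junb, all on the plus strand and written 5′ to 3′. The Dusp1, Egr1 and Junb windows end at the base before the annotated gene, and the Nr4a1 window lies inside the annotated span of its gene.
Dusp1: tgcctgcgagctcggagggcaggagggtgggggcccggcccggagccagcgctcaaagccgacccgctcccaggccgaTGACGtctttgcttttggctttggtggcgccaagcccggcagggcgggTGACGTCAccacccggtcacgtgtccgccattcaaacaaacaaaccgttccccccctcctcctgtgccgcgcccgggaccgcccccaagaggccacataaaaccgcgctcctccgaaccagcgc
Egr1: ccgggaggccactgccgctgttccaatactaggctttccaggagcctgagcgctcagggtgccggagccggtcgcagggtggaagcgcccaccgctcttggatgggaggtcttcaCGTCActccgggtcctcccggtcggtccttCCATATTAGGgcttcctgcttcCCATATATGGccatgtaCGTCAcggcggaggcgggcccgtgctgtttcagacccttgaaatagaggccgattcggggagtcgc
Nr4a1: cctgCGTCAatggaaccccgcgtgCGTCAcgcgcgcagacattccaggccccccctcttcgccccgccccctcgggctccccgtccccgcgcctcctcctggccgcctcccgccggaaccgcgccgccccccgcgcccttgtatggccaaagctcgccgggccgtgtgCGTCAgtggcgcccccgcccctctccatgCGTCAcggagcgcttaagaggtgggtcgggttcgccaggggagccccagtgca
Junb: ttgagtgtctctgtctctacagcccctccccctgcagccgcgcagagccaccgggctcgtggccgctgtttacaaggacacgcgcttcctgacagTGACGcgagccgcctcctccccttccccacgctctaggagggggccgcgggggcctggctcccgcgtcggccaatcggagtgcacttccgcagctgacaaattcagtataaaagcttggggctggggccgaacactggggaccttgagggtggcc

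A CRE core stood in 5 of the 6 windows, with 4 matches in Nr4a1, 3 in Dusp1, 2 in Egr1, 1 in Junb, 1 in Nr4a2 and 0 in Fosb, against 18.2% of the 33469 RefSeq rat promoter windows of this length. The full palindrome TGACGTCA stood in the Dusp1 window alone of the 6, with its first base at position -124 from the start, where it accounts for a pair of the core matches. It was in 1.59% of all windows. The Egr1 window held 2 CArG boxes, and 1.5% of all windows held at least 1. The hypoxia response core ACGTG, searched on both strands, was found in the Egr1 and Dusp1 windows and in 16.6% of all. The EGR element GCGNGGGCG was found in Nr4a1 (4.29% of all windows), and a TATAAA box on the gene strand in Junb (8.06%). The AP-1 element TGANTCA (6.34%) and the Nr4a element AAAGGTCA (1.24%) were in 0 of the 6. The matches describe letters in these windows only.

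Values are the deposited log2 intensities, in which 1 unit is a 2-fold difference, and levels are compared only within a probe. The array medians lay between 4.40 and 4.94 and were highest in the hypoxic arrays, so that the median difference over all 30429 probes was 0.17 for hypoxic minus normoxic glomus cells and 0.25 for hypoxic minus normoxic neuroblasts. The mean correlation of an array with the others of its group was 0.949 to 0.982, except for hypoxic neuroblast replicate 1 with 0.914. Summed as the mean of 14 measured glomus cell markers, which include Th and Chga, the arrays of every group lay between 9.53 and 11.00. The mean of 9 neuroblast markers was 7.37 to 7.92 in normoxic neuroblasts, 6.78 to 6.95 in normoxic glomus cells, 6.40 to 7.04 in hypoxic neuroblasts and 6.36 to 6.65 in hypoxic glomus cells. The labelled populations thus overlapped in the neuroblast list after hypoxia, while their ranges in the glomus list were separate in both oxygen states.

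The first question was how these genes differed between air and 3 days of hypoxia. In neuroblasts 9 of the 10 were lower after hypoxia and 0 were higher, and in glomus cells 4 were lower and 0 higher, in limma's test with Benjamini-Hochberg adjustment over all probes (adjusted p under 0.05). The share of all probes that passed as lower was 13.7% in neuroblasts and 9.50% in glomus cells, and 18.4% and 9.37% passed as higher. Among the 50% of probes with the highest means, which hold all 10 genes, 27.8% and 20.5% passed as lower. The 10 genes were chosen with earlier results of these data known, so these shares are context and no test of the set. The median of the 10 differences was -1.61 in neuroblasts (range -2.92 to -0.00) and -0.54 in glomus cells (range -1.77 to 0.69). The 4 hypoxic arrays all lay below the 4 normoxic arrays for 9 genes in neuroblasts and 4 in glomus cells, which were the same genes that passed, while 11.6% and 11.3% of all probes did so. In bulk samples such as these, fewer cells of a type and less RNA per cell cannot be told apart. No label gives a processing date, so any processing batch and hypoxia cannot be told apart either.

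**Figure D1:**
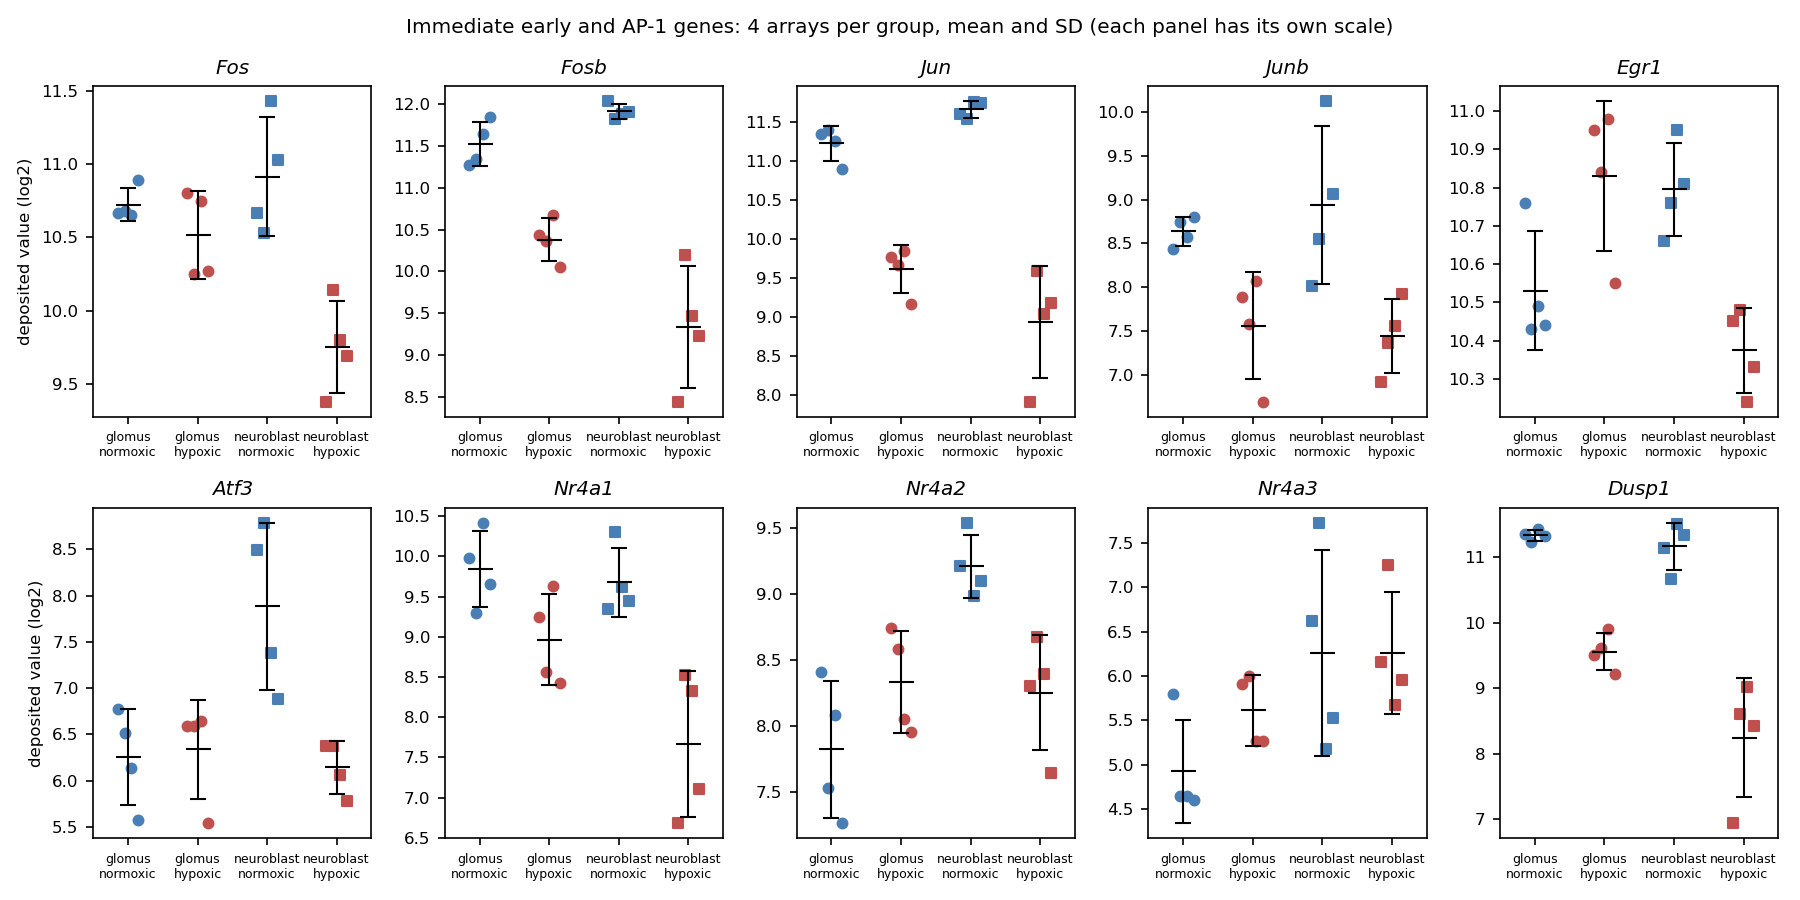
Deposited log2 intensity of the 10 genes in each of the 16 arrays, 1 panel per gene, each panel on its own scale, with points for the arrays and bars for the mean and SD of each group of 4 (circles glomus cells, squares neuroblasts, blue normoxic, red hypoxic). The hypoxic neuroblast arrays lie below the normoxic neuroblast arrays in every panel except that of Nr4a3.

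Among the AP-1 subunits, Fosb and Jun had the largest falls. Fosb, a Fos partner of AP-1, read 12.04, 11.83, 11.89 and 11.91 in normoxic neuroblasts and 8.44, 10.20, 9.47 and 9.23 in hypoxic neuroblasts. In glomus cells it read 11.27, 11.35, 11.64 and 11.85 in air and 10.44, 10.37, 10.67 and 10.05 after hypoxia. In both populations every hypoxic array was below every normoxic one, and hypoxic neuroblast replicate 1 was the lowest of the 16. The difference was -2.58 ± 0.27 in neuroblasts (limma standard error, 5.99-fold lower, adjusted p = 3.59e-06) and -1.15 ± 0.27 in glomus cells (2.21-fold lower, adjusted p = 0.0061).

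Jun, the core Jun subunit of AP-1, read 11.60, 11.54, 11.76 and 11.74 in normoxic neuroblasts and 7.91, 9.59, 9.03 and 9.18 in hypoxic neuroblasts. In glomus cells the Jun values were 11.34, 11.39, 11.26 and 10.90 in air and 9.77, 9.67, 9.84 and 9.17 after hypoxia. The normoxic and hypoxic values were again separate in both populations, with the 4 normoxic neuroblast arrays highest of all 16. The fall was 6.65-fold in neuroblasts (-2.73 ± 0.27, limma adjusted p = 2.14e-06) and 3.05-fold in glomus cells (-1.61 ± 0.27, adjusted p = 0.000484). The other, dimmer Jun probe had group means of 6.29 ± 0.78 (SD, n = 4) in normoxic and 5.29 ± 0.17 in hypoxic neuroblasts, a difference of -1.0 ± 0.30 that passed (limma adjusted p = 0.0181) although the groups overlapped. In glomus cells that probe differed by -0.78 ± 0.30, which did not pass (limma adjusted p = 0.0817), so the 2 probes of Jun shared a direction but not a size.

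Junb, a Jun family member that often restrains Jun, was more variable. It read 8.02, 8.55, 10.12 and 9.06 in normoxic neuroblasts and 6.93, 7.37, 7.56 and 7.93 in hypoxic neuroblasts, and 8.44, 8.75, 8.57 and 8.80 in normoxic and 7.89, 7.59, 8.07 and 6.70 in hypoxic glomus cells. The oxygen groups did not overlap in either population, but in neuroblasts the highest hypoxic and the lowest normoxic value were close. The difference was -1.49 ± 0.37 in neuroblasts (2.81-fold lower, limma adjusted p = 0.00549). In glomus cells it was -1.08 ± 0.37 (2.11-fold lower, limma adjusted p = 0.0481), a call lost in 11 of the 16 fits that left out 1 array (-0.79, adjusted p = 0.164 without hypoxic glomus replicate 4) and after quantile normalization.

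Fos itself, the founding Fos subunit, differed from Fosb and Jun. Its values were 10.67, 10.68, 10.65 and 10.89 in normoxic glomus cells and 10.80, 10.25, 10.75 and 10.27 in hypoxic glomus cells, and 10.67, 10.53, 11.43 and 11.03 in normoxic against 9.38, 10.14, 9.80 and 9.69 in hypoxic neuroblasts. The 2 glomus groups overlapped, whereas the 4 hypoxic neuroblast arrays were below the 12 others. The fall in neuroblasts was 2.24-fold (-1.16 ± 0.21, limma adjusted p = 0.0006). In glomus cells the difference was -0.20 ± 0.21, with a 95% interval of -0.66 to 0.25 (limma adjusted p = 0.533). Fos and Dusp1 were the 2 genes of the 10 with all 4 hypoxic neuroblast arrays below the rest, a pattern held by 0.720% of all probes.

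Dusp1, the MAP kinase phosphatase with the full CRE in its promoter window, showed the largest difference of the 10 in both populations. It read 11.13, 10.67, 11.51 and 11.34 in normoxic and 6.94, 8.60, 9.02 and 8.43 in hypoxic neuroblasts, and 11.35, 11.23, 11.43 and 11.32 in normoxic and 9.51, 9.61, 9.90 and 9.21 in hypoxic glomus cells. The normoxic groups overlapped each other, the hypoxic glomus arrays lay below both, and the hypoxic neuroblast arrays lay lowest. The fall was 7.54-fold in neuroblasts (-2.92 ± 0.32, limma adjusted p = 6.53e-06) and 3.42-fold in glomus cells (-1.77 ± 0.32, adjusted p = 0.000958). Without hypoxic neuroblast replicate 1, the array that correlated least with its group, the neuroblast difference was -2.48.

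The 3 Nr4a receptors did not move alike. Nr4a1, the receptor also known as Nur77, read 9.34, 10.30, 9.62 and 9.44 in normoxic neuroblasts and 6.68, 8.53, 8.33 and 7.11 in hypoxic neuroblasts. In glomus cells its values of 9.98, 9.30, 10.42 and 9.66 in air and 9.24, 8.56, 9.63 and 8.43 after hypoxia overlapped. It was 4.03-fold lower in hypoxic neuroblasts (-2.01 ± 0.39, limma adjusted p = 0.000868). The glomus difference of -0.88 ± 0.39 did not pass (limma adjusted p = 0.13).

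Nr4a2, the receptor Nurr1 that is needed for dopaminergic neurons and acts on the Th gene, read 9.21, 9.54, 8.98 and 9.10 in normoxic neuroblasts, above all 12 other arrays. After hypoxia the neuroblasts read 8.30, 8.67, 8.39 and 7.64. The glomus values were 8.41, 7.53, 8.08 and 7.26 in air and 8.74, 8.58, 8.05 and 7.95 after hypoxia, so that only the neuroblast groups were separate. The neuroblast difference was -0.96 ± 0.27 (1.94-fold lower, limma adjusted p = 0.0129; adjusted p = 0.0694 after quantile normalization). The glomus difference was 0.51 ± 0.27 and did not pass (limma adjusted p = 0.206).

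Nr4a3, the third receptor of the family, was the 1 gene of the 10 that did not pass in neuroblasts, and it did not pass in glomus cells. It read 6.62, 7.73, 5.17 and 5.52 in normoxic neuroblasts, 6.16, 7.25, 5.67 and 5.95 in hypoxic neuroblasts, 5.80, 4.65, 4.64 and 4.60 in normoxic glomus cells and 5.91, 6.0, 5.27 and 5.26 in hypoxic glomus cells. The arrays of each neuroblast group were widely spread and covered one another. The neuroblast difference was -0.00 ± 0.47 with a 95% interval of -0.98 to 0.98 (limma adjusted p = 0.997), and the glomus difference was 0.69 ± 0.47 (limma adjusted p = 0.326).

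Atf3, a stress-induced zipper factor, was high in 1 group only. It read 8.49, 8.79, 7.38 and 6.88 in normoxic neuroblasts, each above the 12 other arrays. In hypoxic neuroblasts it read 6.37, 6.37, 6.06 and 5.78. The glomus values, 6.78, 6.52, 6.14 and 5.58 in air and 6.59, 6.59, 6.64 and 5.54 after hypoxia, overlapped with those of hypoxic neuroblasts. Atf3 fell 3.34-fold in hypoxic neuroblasts (-1.74 ± 0.38, limma adjusted p = 0.00217), and in glomus cells it differed by 0.09 ± 0.38, with a 95% interval of -0.71 to 0.88 (limma adjusted p = 0.897).

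Egr1, the zinc finger factor with 2 CArG boxes in its window, had the smallest differences of those that passed and the narrowest spread. It read 10.66, 10.76, 10.95 and 10.81 in normoxic and 10.45, 10.48, 10.24 and 10.33 in hypoxic neuroblasts, and 10.76, 10.43, 10.49 and 10.44 in normoxic and 10.95, 10.84, 10.98 and 10.55 in hypoxic glomus cells. The neuroblast groups were separate and the glomus groups overlapped. The neuroblast difference was -0.42 ± 0.15 (1.34-fold lower, limma adjusted p = 0.0401). That call was lost in 6 of the 16 fits that left out 1 array (adjusted p up to 0.106) and with only the neuroblast arrays fitted (0.0996), and the difference was -0.70 with each array centred on its median. In glomus cells the difference was 0.30 ± 0.15, which did not pass (limma adjusted p = 0.177) but passed with array weights (adjusted p = 0.0438) and was 0.09 after centring.

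**Figure D2:**
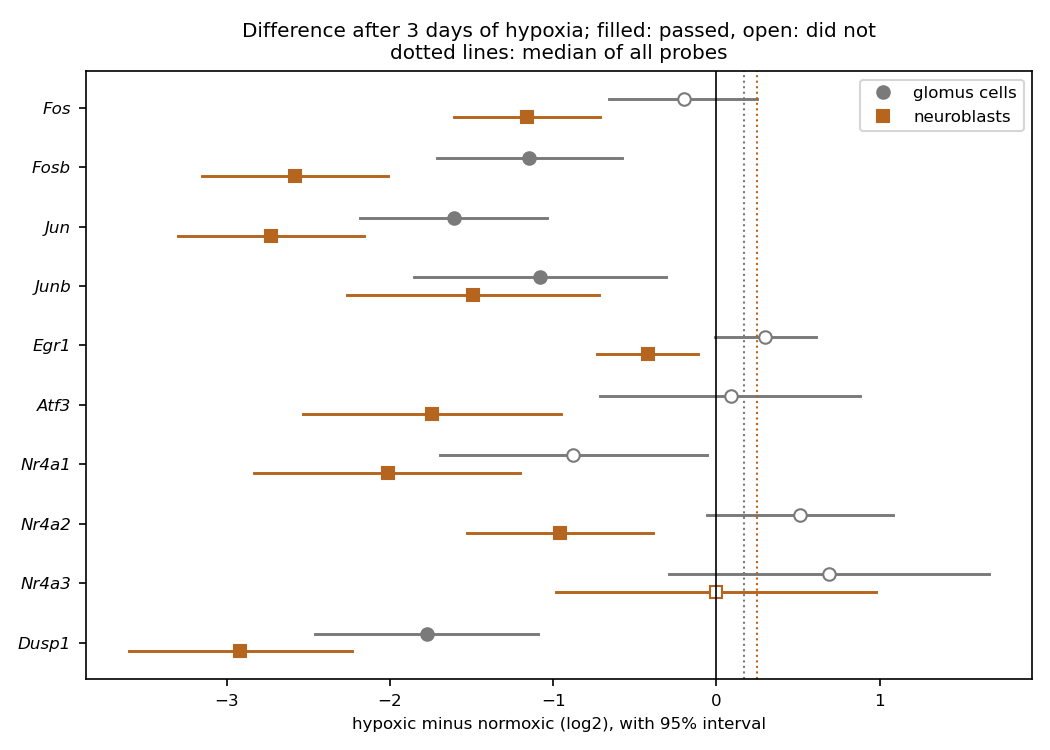
Log2 difference, hypoxic minus normoxic, of the 10 genes in glomus cells and in neuroblasts, with limma 95% intervals, filled symbols for those that passed and dotted lines at the median of all probes (0.17 and 0.25). The differences in neuroblasts run from -2.92 for Dusp1 to -0.00 for Nr4a3, and each point estimate is below the one of the same gene in glomus cells.

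The second question was whether the populations differed in these genes at rest. In air Nr4a2 and Atf3 were higher in neuroblasts than in glomus cells, by 1.39 ± 0.27 (2.62-fold, limma adjusted p = 0.00888) and by 1.63 ± 0.38 (3.1-fold, limma adjusted p = 0.0294). The other 8 did not pass, and 0 were lower. Of all probes, 0.996% passed as higher, 0.828% as lower and 1.82% in either direction. The call of Atf3 was lost in 4 of the 16 fits that left out 1 array (adjusted p up to 0.127), after quantile normalization (0.071) and with only the normoxic arrays fitted (0.0806). Jun did not pass (0.44 ± 0.27, limma adjusted p = 0.745) although its 4 normoxic neuroblast values lay above the 4 normoxic glomus values. Nr4a3 differed by 1.34 ± 0.47, which did not pass (limma adjusted p = 0.241). Fos, Fosb, Junb, Egr1, Nr4a1 and Dusp1 differed by -0.17 to 0.39, with adjusted p from 0.689 to 0.999, and their groups overlapped. The groups did not overlap for 3 of the 10 genes (Jun, Atf3 and Nr4a2), against 7.39% of all probes.

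After hypoxia limma passed 0 of the 10 genes between neuroblasts and glomus cells, in a comparison where 0.283% of all probes passed. At an unadjusted p under 0.05 there were 6, and 11.1% of all probes. With the probes of a gene averaged there were 5. Jun differed by -0.68 ± 0.27 on its main probe and by 0.17 ± 0.30 on its other probe. Dusp1 (-1.31 ± 0.32, limma adjusted p = 0.112), Nr4a1 (-1.30 ± 0.39, adjusted p = 0.215), Fosb (-1.05 ± 0.27, adjusted p = 0.13) and Fos (-0.77 ± 0.21, adjusted p = 0.174) had the largest negative differences. The arrays of the 2 groups did not overlap for Fos, Egr1 and Dusp1, 3 of the 10 genes against 4.48% of all probes. Without hypoxic neuroblast replicate 2, the array highest in most of these genes, Fosb passed (-1.34, limma adjusted p = 0.025).

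The interaction term, which subtracts the glomus hypoxia difference from the neuroblast one, tests whether the responses differed. Limma passed 0 of the 10 genes, and 0.0789% of all probes (24). All 10 estimates were below 0, from -1.83 ± 0.53 for Atf3 to -0.41 ± 0.52 for Junb, with a median of -1.13 against 0.05 over all probes, of which 44.5% were below 0. At an unadjusted p under 0.05 there were 7 of the 10 genes: Nr4a2 (-1.47 ± 0.38, limma adjusted p = 0.261), Fosb (-1.44 ± 0.38, adjusted p = 0.284), Atf3, Egr1, Fos, Jun and Dusp1. This was against 6.62% of all probes. The other Jun probe had an estimate of -0.22 ± 0.43, and with the probes of a gene averaged the count was 6. The 9 calls in neuroblasts against 4 in glomus cells therefore do not by themselves show a different response, and the test of that difference did not pass for any of the 10 genes. Without hypoxic neuroblast replicate 1 the estimates ran from -1.90 to -0.24, with 7 at an unadjusted p under 0.05 and 0 passed.

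In the order of group means, normoxic neuroblasts came highest for Fos, Fosb, Jun, Junb, Atf3 and Nr4a2, and hypoxic neuroblasts lowest for Fos, Fosb, Jun, Junb, Egr1, Atf3, Nr4a1 and Dusp1. For Nr4a2 and Nr4a3 the lowest group was normoxic glomus cells. The normoxic and hypoxic neuroblast means of Nr4a3 were level at the top, at 6.26. Neighbours in that order often overlapped. Fos separated only hypoxic neuroblasts (9.75 ± 0.31, SD, n = 4) from hypoxic glomus cells (10.52 ± 0.30), which overlapped with normoxic glomus cells (10.72 ± 0.11). Dusp1 had 3 levels: both normoxic groups (11.33 ± 0.08 in glomus cells and 11.16 ± 0.36 in neuroblasts), then hypoxic glomus cells (9.56 ± 0.28), then hypoxic neuroblasts (8.25 ± 0.91). For Egr1 each group overlapped with its neighbour, from 10.83 ± 0.20 in hypoxic glomus cells to 10.38 ± 0.11 in hypoxic neuroblasts.

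The 10 genes varied between arrays of a group more than most probes. The median of their pooled within-group SDs was 0.46, against 0.32 over all probes. Egr1 was the exception at 0.15, a spread at the 1.78th percentile of all probes, and Fos was near the middle with 0.30. Nr4a3 (0.76), Nr4a1 (0.62), Atf3 (0.60) and Junb (0.59) lay at the 97.3rd, 94.1st, 93.3rd and 92.6th percentile. Single arrays stood at the edge of their group for many of the genes. Hypoxic glomus replicate 4 was the lowest of its group for 9 of the 10 genes, and for 24.2% of all probes. Hypoxic neuroblast replicate 2 was the highest of its group for 8, and for 18.7% of all probes.

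With the group means removed, the deviations of some of the 10 genes went together over the 16 arrays. These correlations are descriptions only, since genes on an array share its RNA input, labelling and scaling. Jun went with Dusp1 (r = 0.81) and Fosb (0.76), Fosb also with Dusp1 (0.73) and Nr4a1 (0.70), and Fos with Junb (0.75). Hypoxic neuroblast replicate 1 was the lowest of the 16 arrays for Jun (7.91), Dusp1 (6.94) and Fosb (8.44). It weighs on the pairs of these genes, and r without it was not computed. Atf3 went with Nr4a3 (0.76) and Nr4a2 (0.61), and Nr4a2 with Nr4a3 (0.66). The lowest values were negative: Junb with Nr4a3 -0.47, Fos with Nr4a3 -0.35 and Fos with Atf3 -0.33. Over all 45 pairs r ranged from -0.47 to 0.81 with a median of 0.29, and 15 pairs were above 0.5 and 10 below 0.

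**Figure D3:**
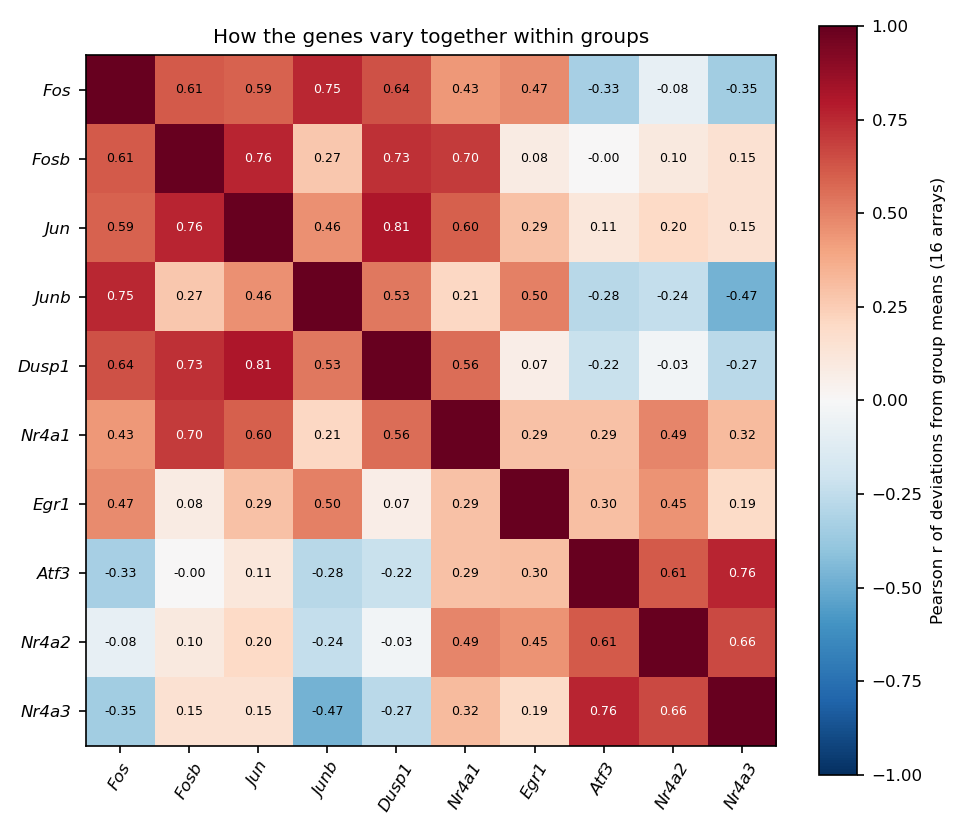
Pearson correlation of deviations from the group mean over 16 arrays for each pair of the 10 genes, on a colour scale from -1 to 1. The highest value is 0.81 for Jun and Dusp1 and the lowest -0.47 for Junb and Nr4a3.

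Among 18500 single-gene probes of other genes, those with deviations most like Fos were Crkl (r = 0.93), Crmp1 (0.91) and Tppp (0.91), over the 16 arrays. For Atf3 they were Yap1 (0.90), Zscan25 (0.88) and the heat shock gene Hsph1 (0.85), and for Nr4a2 they were Fmo4 (0.86), Maf (0.86) and Gpr4 (0.85).

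Related genes were read from 7 lists, whose counts stand against the shares of all probes that passed in these comparisons: 9.50% lower and 9.37% higher in hypoxic glomus cells, and 13.7% lower and 18.4% higher in hypoxic neuroblasts. The lists too were chosen with earlier results of these data known, so the shares are context and no test of a list. Of 28 measured upstream kinases and inducing factors, 11 fell and 1 rose in hypoxic glomus cells and 15 fell and 0 rose in hypoxic neuroblasts, against 9.50% and 13.7% of all probes that fell and, among the 50% of probes with the highest means, 20.5% and 27.8%. The list medians were -0.46 and -0.81, against 0.17 and 0.25 over all probes. The catalytic subunits of the cyclic AMP kinase were among them: Prkacb changed by -2.07 ± 0.28 in glomus cells (limma adjusted p = 8.2e-05) and by -2.21 ± 0.28 in neuroblasts (adjusted p = 1.91e-05). Prkaca changed by -1.59 ± 0.35 in glomus cells (limma adjusted p = 0.00362) and by -2.06 ± 0.35 in neuroblasts (adjusted p = 0.000272). Map2k7, a kinase of the JNK cascade that acts on Jun, changed by -1.61 ± 0.29 in glomus cells and -2.09 ± 0.29 in neuroblasts. Elk1, the SRF partner factor, and Rps6ka3, a CREB kinase, changed by -1.51 ± 0.28 and -1.0 ± 0.18 in glomus cells. In neuroblasts they changed by -1.50 ± 0.28 and -1.02 ± 0.18 (limma adjusted p = 0.000597 and 0.000523). Camk4, a calcium-dependent CREB kinase, was 2.66 ± 0.27 higher in normoxic neuroblasts than in normoxic glomus cells (limma adjusted p = 2.21e-05) and fell by 1.51 ± 0.27 in hypoxic neuroblasts.

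Of 27 measured other immediate early genes, 3 rose and 3 fell in hypoxic glomus cells and 4 rose and 6 fell in hypoxic neuroblasts, with list medians of -0.15 and -0.21 against 0.17 and 0.25 over all probes. In glomus cells these counts are near the shares of all probes (9.37% higher and 9.50% lower), as is the count of rises in neuroblasts (18.4%), so they are no result about the list, and 13.7% of all probes fell in neuroblasts. Among the 50% of probes with the highest means 27.8% fell in neuroblasts. Per1, a clock gene induced by CREB, fell by 1.65 ± 0.19 in neuroblasts (limma adjusted p = 1.03e-05). In glomus cells Per1 changed by -0.74 ± 0.19 (limma adjusted p = 0.0121). Sik1, a kinase that feeds back on the CREB pathway, changed by -1.20 ± 0.20 in glomus cells and by -1.54 ± 0.20 in neuroblasts. The nuclear factor Csrnp1 changed by -1.31 ± 0.22 in neuroblasts. Its glomus difference was -0.65 ± 0.22 (limma adjusted p = 0.0478, close to the threshold). Nfkbia, the inhibitor of NF-kappaB, moved the other way, by 1.39 ± 0.20 in glomus cells (limma adjusted p = 0.00014) and 1.26 ± 0.20 in neuroblasts (adjusted p = 0.000156). Crem, a CREB family gene with repressor forms, and Ier3 rose in glomus cells, by 0.88 ± 0.18 and 0.87 ± 0.21. Both also rose in neuroblasts, by 0.71 ± 0.18 and 0.80 ± 0.21 (limma adjusted p = 0.00771 and 0.00812). With each array centred on its median the list had 3 rises in glomus cells and 1 in neuroblasts. In air Myc was 1.60 ± 0.18 higher in neuroblasts (limma adjusted p = 7.1e-05), while Arc (-2.07 ± 0.44), Rgs2 (-1.85 ± 0.34) and Nfkbia (-0.82 ± 0.20, a call lost in 16 of its 25 alternatives) were lower.

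Close relatives of the 10 genes were read the same way. Of 9 measured other MAP kinase phosphatase genes, 3 fell and 0 rose in each population (9.50% of all probes fell in glomus cells and 13.7% in neuroblasts), and these were Dusp6, Dusp8 and Dusp16, the last lost in glomus cells after quantile normalization (adjusted p up to 0.116 over the alternatives). Dusp8 changed by -1.02 ± 0.22 in glomus cells (limma adjusted p = 0.00363) and by -2.08 ± 0.22 in neuroblasts (adjusted p = 4.42e-06), and Dusp6, which acts on ERK, by -1.48 ± 0.20 and -1.04 ± 0.20. Dusp16, which acts on JNK and p38, changed by -0.90 ± 0.29 and -1.61 ± 0.29. In air Dusp6 was lower in neuroblasts than in glomus cells (-1.23 ± 0.20, limma adjusted p = 0.00204) and Dusp8 higher (0.95 ± 0.22, adjusted p = 0.0305, a call lost in 7 of its 25 alternatives). Of 10 measured other AP-1 and zipper partners, 2 fell in glomus cells, Jund (-0.78 ± 0.22) and Mafk (-0.60 ± 0.17). In neuroblasts the same 2 fell (-0.81 ± 0.22 and -0.68 ± 0.17) and 2 rose, Batf3 (0.98 ± 0.21) and Batf2 (0.49 ± 0.18), counts near the 13.7% of all probes that fell and the 18.4% that rose. The calls of Jund and Mafk were lost in both populations after quantile normalization, and that of Batf2 in 15 of its 24 alternatives. Of the 5 genes of the Egr and Nab list, Egr2 (1.79 ± 0.54, limma adjusted p = 0.028) and Egr4 (0.86 ± 0.23, adjusted p = 0.0141) rose in hypoxic glomus cells, and Egr4 (0.80 ± 0.23) and the corepressor gene Nab2 (0.75 ± 0.18) rose in hypoxic neuroblasts, where 9.37% and 18.4% of all probes rose. With each array centred on its median the calls of Egr2 in glomus cells and of Egr4 and Nab2 in neuroblasts were lost.

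Of 13 measured genes that follow immediate early factors in active neurons, 3 rose and 2 fell in hypoxic glomus cells (9.37% and 9.50% of all probes) and 2 rose and 1 fell in hypoxic neuroblasts (18.4% and 13.7% of all probes). The neuroblast counts are at or below those shares, so they are no result about the list. Npy, the neuropeptide Y gene, rose from 6.91 ± 0.39 to 9.25 ± 0.17 (SD, n = 4) in glomus cells and from 7.30 ± 0.26 to 9.97 ± 0.24 in neuroblasts (2.34 ± 0.20 and 2.67 ± 0.20, limma adjusted p = 5.89e-06 and 2.89e-07). The secreted peptide precursor gene Vgf rose by 1.36 ± 0.26 and 1.49 ± 0.26. Syt4, a vesicle protein gene, changed by -1.04 ± 0.25 and -1.11 ± 0.25. Nptx2, a secreted synaptic pentraxin gene, rose by 0.74 ± 0.15 in glomus cells. In air Rasgrp1 (-1.84 ± 0.18, limma adjusted p = 1.21e-05) and Scg2 (-0.62 ± 0.14, adjusted p = 0.0286, a call lost in 9 of its 25 alternatives) were lower in neuroblasts.

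**Figure D4:**
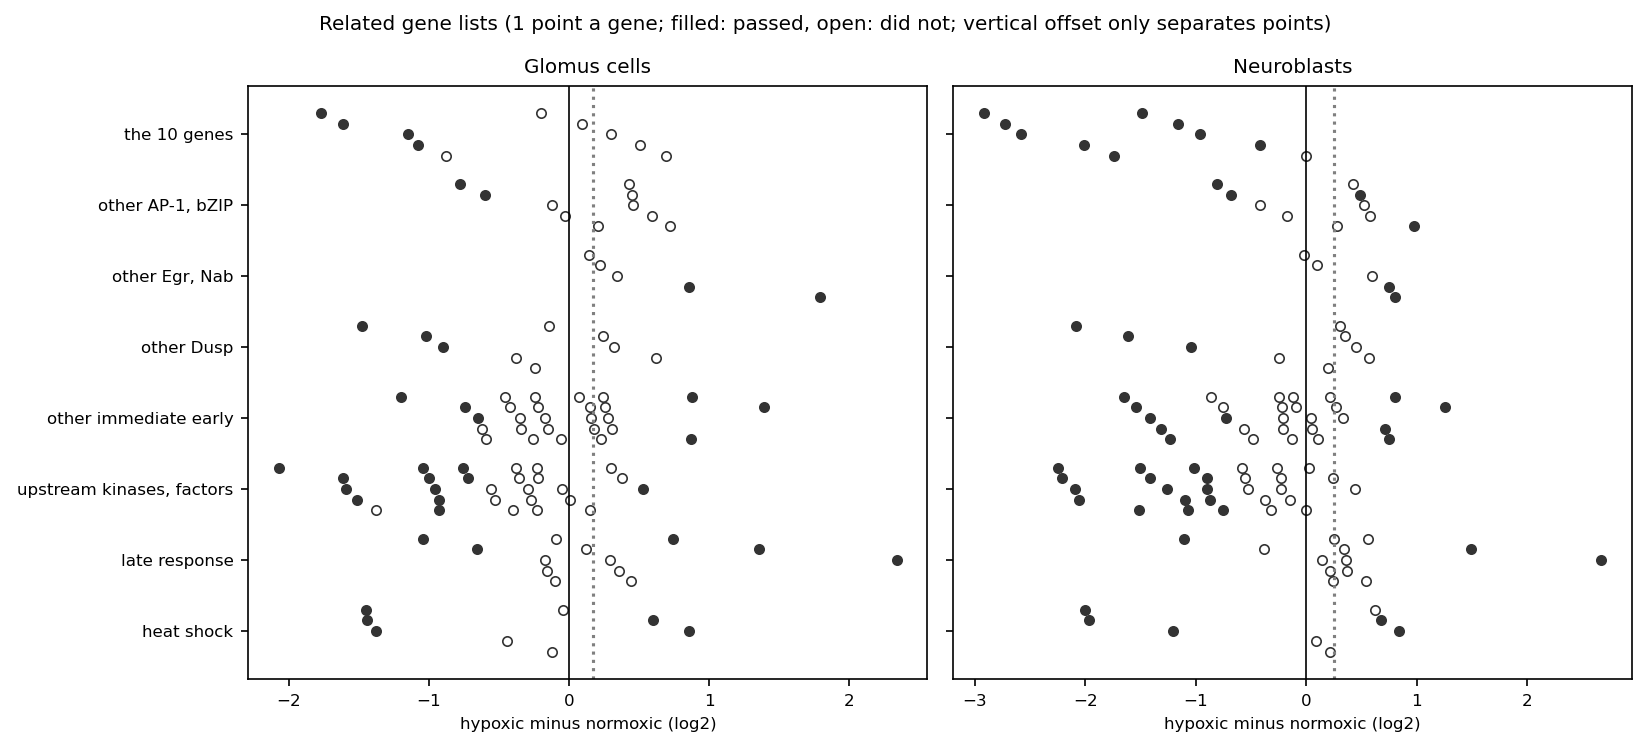
Log2 difference, hypoxic minus normoxic, of each measured gene of the 7 related lists and of the 10 genes in glomus cells and in neuroblasts, filled where the gene passed, with a dotted line at the median of all probes. Of the upstream kinases and inducing factors, 11 and 15 filled points lie below 0.

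Dissociation and cell type markers were read in the same arrays. Of 8 heat shock genes that tissue dissociation is known to induce, 3 fell and 2 rose in each population, against 9.50% and 9.37% of all probes in glomus cells and 13.7% and 18.4% in neuroblasts. Hspa8, the constitutive cytosolic chaperone, changed by -1.44 ± 0.22 in glomus cells (limma adjusted p = 0.000264) and by -1.97 ± 0.22 in neuroblasts (adjusted p = 8.08e-06), and its cofactor Hsph1 by -1.45 ± 0.28 and -2.0 ± 0.28. The mitochondrial chaperone genes Hspd1 and Hspe1 rose by 0.86 ± 0.23 and 0.60 ± 0.16 in glomus cells, calls lost with each array centred on its median or without normoxic glomus replicate 4. In neuroblasts they rose by 0.84 ± 0.23 and 0.68 ± 0.16, calls also lost with centring. The mean of the 8 genes was 8.78 to 9.78 in normoxic and 8.78 to 9.32 in hypoxic glomus cells, and 8.80 to 10.02 in normoxic and 8.84 to 8.98 in hypoxic neuroblasts. The groups overlapped in this mean, which pools genes that fell with genes that rose. In glomus cells the overlap rested on normoxic replicate 4 at 8.78, with the other normoxic arrays at 9.61 to 9.78. In neuroblasts it rested on normoxic replicate 3 at 8.80, with the other normoxic arrays at 9.03 to 10.02. The part of the heat shock genes in the falls of the immediate early genes was not tested.

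Markers of other cells are given beside the shares of all probes that rose (9.37% in glomus cells and 18.4% in neuroblasts) or fell (9.50% and 13.7%). The mean of 10 macrophage markers was 5.09 to 6.77 in normoxic and 6.16 to 6.73 in hypoxic glomus cells, where 3 of 10 rose and 0 fell, and 4.19 to 4.69 in normoxic and 4.67 to 5.12 in hypoxic neuroblasts, where 0 of 10 passed. The mean of 6 measured endothelial markers was 5.16 to 6.72 in normoxic and 6.11 to 7.16 in hypoxic glomus cells and 4.02 to 4.75 and 5.12 to 5.28 in the neuroblast groups, and 2 of 6 rose in each. Of the 9 neuroblast markers, 6 fell in hypoxic neuroblasts and 2 in hypoxic glomus cells, and 0 rose. Of the 14 glomus markers, 5 fell and 3 rose in hypoxic neuroblasts, and 4 fell and 1 rose in hypoxic glomus cells. Of 5 glial, 6 pericyte, 6 fibroblast and 7 T and NK cell markers, 2, 0, 0 and 2 rose and 0, 1, 0 and 0 fell in hypoxic neuroblasts, and 1, 0, 0 and 1 rose and 0, 1, 0 and 0 fell in hypoxic glomus cells. The fibroblast mean was 5.54 to 8.92 in normoxic neuroblasts and 4.82 to 6.79 over the other groups. Pooled over these 4 lists, the rises are no more frequent than among all probes. The mean of the 5 glial markers was 4.11 to 4.83 in normoxic and 4.93 to 5.54 in hypoxic glomus cells. In neuroblasts it was 4.68 to 5.26 in air and 5.72 to 6.03 after hypoxia, so the oxygen groups were separate in both populations. The T and NK cell mean separated them in neuroblasts (3.59 to 3.75 and 4.06 to 4.38) but not in glomus cells. The oxygen groups overlapped in the pericyte and fibroblast means. Between the normoxic populations, 5 of 10 macrophage, 1 of 6 endothelial and 1 of 7 T and NK cell markers were lower in neuroblasts. Of the 6 pericyte markers 1 was higher, and 0 glial or fibroblast markers passed. Of all probes, 0.828% passed as lower and 0.996% as higher in that comparison. Between the hypoxic populations, 6 of 10 macrophage and 1 of 6 endothelial markers were lower in neuroblasts. There 0 glial, pericyte, fibroblast or T and NK cell markers passed, and 0.145% of all probes passed as lower. The part of these shifts and differences in the values of the 10 genes was not tested.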

How the data were processed

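The values are log2 expression intensities per probe in the authors' deposited table, made with Transcriptome Analysis Console per the submitters' processing notes from 500 pg of total RNA per sample. The log base was inferred from the range of 0.87 to 13.33, while the sources used here give no version, background correction or normalization. Genes were named from the array annotation, by the 18511 probes with 1 gene. All 30429 probes of the 16 arrays were fitted with 1 mean per group in limma 3.58.1 (R 4.3.3, lmFit and eBayes, 12 residual degrees of freedom). Tests were two-sided, with Benjamini-Hochberg adjustment over all probes within each of 5 comparisons, and passed at an adjusted p under 0.05. The script was tested on simulated data. Arrays give no read depth, so their number limits the precision. The members and lists were chosen with earlier results of these data known. From each list the text names up to 4 passing genes with the smallest p per comparison (both hypoxia comparisons and the normoxic populations), and for Fos, Atf3 and Nr4a2 the 3 most alike probes. Promoter windows came from RefSeq (GRCr8). Figures used Python 3.11.15 and matplotlib 3.10.9. The alternatives were centring, quantile normalization, filters on the dimmest 25% and 50% of probes, eBayes with trend and robust settings, weights per array, a fit of only the arrays compared, a block for replicate number, averaged probes and leaving out each array. For the related lists they were added after seeing the data.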

Additional observations from a re-analysis of the deposited data

Results flagged for a closer look

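In 3 of the 40 groups of 4 values (10 genes in 4 groups), 1 array stood far from its group, and chance flags about 1 in 20 groups. Fos in normoxic glomus cells replicate 4 was 10.89, with the other 3 at 10.65 to 10.68. Atf3 in hypoxic glomus cells replicate 4 was 5.54, with the next at 6.59. Nr4a3 in normoxic glomus cells replicate 1 was 5.80, with the next at 4.65.

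For Egr1 and Nr4a2 the hypoxic arrays of the populations lay on opposite sides of their normoxic means in the deposited values. Every hypoxic glomus array lay above the normoxic glomus mean, and every hypoxic neuroblast array lay below the normoxic neuroblast mean. The difference of the hypoxia differences, neuroblasts minus glomus cells, was -0.72 ± 0.21 for Egr1 (limma adjusted p = 0.383) and -1.47 ± 0.38 for Nr4a2 (limma adjusted p = 0.261), and neither passed. The glomus differences alone, 0.30 ± 0.15 and 0.51 ± 0.27, did not pass either. With each array centred on its median they were 0.09 and 0.29.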

How the results depend on the processing

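The count of the 10 genes that passed was 4 in glomus cells, 9 in neuroblasts, 2 between normoxic populations, 0 between hypoxic populations and 0 in the interaction. Leaving out each array in turn gave 3 to 4, 8 to 9, 1 to 2, 0 to 1 and 0 to 0. The normoxic population count was 1 after quantile normalization and 1 with only the arrays compared. With the replicate number as a block the counts were 4, 9, 2, 0 and 0, and no call of the 10 genes changed. The numbers were not shown to pair the samples, since deviations of same-numbered arrays correlated by -0.10 to 0.20, and 7 of 24 pairs were above 0.1.

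Centring moved the split of all passing probes from 2852 higher and 2892 lower to 1370 and 3783 in glomus cells, and from 5596 and 4159 to 1826 and 5464 in neuroblasts. Quantile normalization gave 2215 and 2490, and 3278 and 3701. The members' medians were then -0.76 and -1.90 (centred), or -0.61 and -1.41 (quantile). After centring, Atf3 in glomus cells was -0.13. After quantile normalization, Nr4a3 in neuroblasts was 0.12, and between hypoxic populations Junb was 0.05 and Nr4a2 0.07. Leaving out arrays took Atf3 in glomus cells from -0.14 to 0.35 and Nr4a3 in neuroblasts from -0.37 to 0.49. Between hypoxic populations it took Junb from -0.40 to 0.06 and Nr4a2 from -0.22 to 0.12, and between normoxic populations Nr4a1 from -0.37 to 0.03 and Junb from -0.10 to 0.60. None of these values that changed sign passed, and the cause was not tested.

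In hypoxic neuroblasts the calls of Fos, Fosb, Jun, Junb, Atf3, Nr4a1 and Dusp1, and in hypoxic glomus cells those of Fosb, Jun and Dusp1, were kept under every alternative run. The upstream list had 8 to 12 falls in glomus cells and 10 to 17 in neuroblasts over the alternatives, and the other immediate early genes 1 to 4 and 5 to 8. Leaving out 1 array also ended calls of Jund, Mafk, Egr2, Egr4, Dusp16, Hspe1 and Hspd1 in glomus cells, of Batf2 in neuroblasts and of Arc between normoxic populations, with adjusted p up to 0.0669, 0.12, 0.0858, 0.0601, 0.116, 0.0981, 0.383, 0.412 and 0.0805 over all their alternatives.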
